A study of Rattus norvegicus with 6 samples.

Results

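The small RNA of sperm from rats on standard diet is described here, as 3 libraries (CTRL1, CTRL2 and CTRL3) of the 6 in the study. They were chosen by their diet label, and no measured value entered that choice. All rats were wild type Wistar males, housed 2 per cage and grouped by diet at 10 weeks of age, and sperm RNA came from rats of 5 months. The SD fathers received a standard diet (SD) and served as controls, and the other 3 libraries are from fathers on HPD, a diet rich in protein given over 2 to 3 months. Sperm was squeezed from the epididymis and passed through a hypotonic shock to lower the share of somatic cells, and each library was made from 1 rat. The tables name the SD libraries only by group, so none was tied to a numbered rat.

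Sperm carries little cytoplasm and few long transcripts, but a rich population of small non-coding RNA. Fragments of mature tRNA (tsRNA) are cut mostly from the 5' part of the tRNA, and a large part of them is loaded into maturing sperm while it passes through the epididymis. MicroRNAs (miRNA) guide Argonaute proteins to messenger RNAs that pair with their seed, bases 2 to 8. Fragments of ribosomal RNA (rRNA) are pieces of the RNA of ribosomes, and PIWI-interacting RNAs (piRNA) silence transposons and clear messengers in the testis before sperm are formed.

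The most abundant miRNA families of these libraries share few seeds, which the following sequences show. They are mature sequences from RefSeq of build GRCr8, written 5' to 3' with the seed in capitals. The tables count reads per hairpin and do not separate its arms, so the arm printed is the one known to be retained in most tissues. The first set holds the 4 most abundant members of the let-7 family, which limits proliferation and marks differentiated cells.
let-7f-5p: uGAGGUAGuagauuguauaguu
let-7a-5p: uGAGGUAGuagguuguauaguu
let-7c-5p: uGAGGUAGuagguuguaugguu
let-7g-5p: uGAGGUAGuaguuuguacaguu
All 4 have the same seed. Counted from the 5' base of let-7f-5p, let-7a-5p differs by A12G, let-7c-5p by A12G and A19G, and let-7g-5p by A12U and U18C. A short or trimmed read that ends before these bases fits several members at once.

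The next set holds the pairs from the miR-26 and miR-10 families and single miRNAs of high rank.
miR-26a-5p: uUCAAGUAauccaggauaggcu
miR-26b-5p: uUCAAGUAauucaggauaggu
miR-10a-5p: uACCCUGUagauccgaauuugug
miR-10b-5p: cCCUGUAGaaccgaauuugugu
miR-21-5p: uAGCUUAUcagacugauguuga
miR-30a-5p: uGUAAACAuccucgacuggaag
miR-143-3p: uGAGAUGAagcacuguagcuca
miR-26a and miR-26b share their seed. The RefSeq entry of miR-10b starts 2 bases after that of miR-10a, and over the 21 bases they share they differ at 1 position, so the capitals of these entries differ although the RNAs are close relatives.

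The last set holds miRNAs of the male germ line, which served to check the labelled cell type.
miR-34b-5p: aGGCAGUGuaauuagcugauugu
miR-34c-5p: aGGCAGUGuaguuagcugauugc
miR-449a-5p: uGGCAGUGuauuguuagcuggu
miR-741-3p: aAAGAUGCcacgcuauguagau
miR-34b, miR-34c and miR-449a, which are needed together for spermatogenesis and for motile cilia in mouse, have 1 seed in common. miR-741 belongs to a cluster on the X chromosome that is expressed in the testis.

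The tables count a read that fits several RNAs as a fraction for each. With tRNA end rows left out, since whole-tRNA rows already contain them, the libraries held 7919940, 4141012 and 4254019 reads in 26379 rows of 4 classes. The 178 end rows were counted apart. CTRL1 was the deepest library and stood apart in its 18S rRNA row matched to the genome, which was listed at 0, against 273666 reads in CTRL2 and 106347 in CTRL3. Whether this 0 is a measurement or a fault in the making of the table was not tested, so the shares of the classes and of the rRNAs are given with and without the 18S rows. For each class, reads of every pair of libraries differed far beyond sampling noise (chi-square over degrees of freedom between 6.02 for piRNA and 45167 for rRNA), so no 2 columns hold 1 library. The value of 45167, for CTRL1 against CTRL2, includes the 18S row listed at 0 and is not given without it. For rRNA in CTRL2 against CTRL3 the value was 6775. These are values of 1 group of 3 rats, and an exact sign-flip test within 3 libraries cannot go below *p* = 0.25. No test was therefore run, errors are standard deviations over n = 3, and neighbours in an order are said to be apart only where the ranges of their libraries do not overlap.

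tsRNA formed the largest class in each library. They made up 52.0%, 50.7% and 55.2% of the reads in CTRL1, CTRL2 and CTRL3 (52.6 ± 2.33%, standard deviation, n = 3). miRNA made up 28.9%, 20.9% and 23.3% (24.4 ± 4.14%) and rRNA fragments 17.8%, 27.1% and 20.3% (21.8 ± 4.82%). tsRNA lay above both in every library, while the ranges of miRNA and rRNA overlapped and their order changed: miRNA outnumbered rRNA fragments in CTRL1 and CTRL3, and rRNA fragments outnumbered miRNA in CTRL2. piRNA were the smallest class, with 1.26%, 1.26% and 1.17%. For each piRNA read there were 41.4, 40.1 and 47.0 tsRNA reads. The tsRNA to miRNA ratio was 1.80, 2.43 and 2.37, lowest in CTRL1, the library with the highest miRNA share. Without the 18S rows the rRNA share was 17.8%, 22.0% and 18.3% (19.4 ± 2.27%) and the miRNA share 28.9%, 22.4% and 23.9%, so that miRNA then stood above rRNA fragments in all 3 libraries. The tsRNA share was then 52.0%, 54.3% and 56.6% (54.3 ± 2.33%) and the piRNA share 1.26%, 1.35% and 1.204%. Shares add up to the whole, so that a high share of one class lowers the others.

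**Figure D1:**
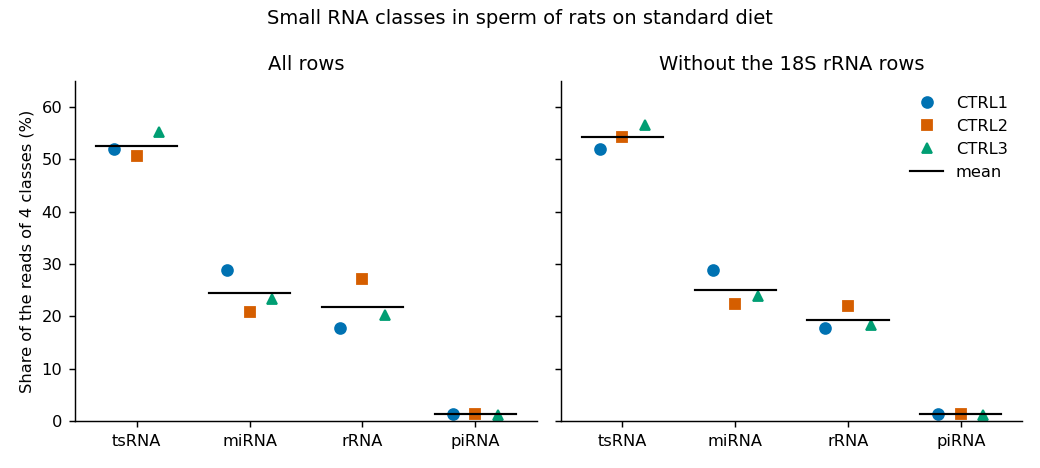
Share of each class in the reads of the 4 classes (%, vertical axis) in the 3 SD libraries (points) with their mean (line), with all rows (left) and without the 18S rRNA rows (right). tsRNA lie between 50.7% and 55.2%, and the rRNA point of CTRL2 moves from 27.1% to 22.0% when the 18S rows are left out.

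Very few names held most of the reads. A tRNA or rRNA name sums all its fragments, and a miRNA name its numbered copies, whereas each piRNA entry counts alone. Numbers of RNAs given here are numbers of such names. Over all classes together, 7, 6 and 7 RNAs made up 50% of the reads and 58, 54 and 53 made up 90%. The 20 most abundant RNAs held 69.9% of the reads on average, and were 13 tRNAs (42.8% of the reads), 3 rRNAs (21.2%) and 4 miRNAs (5.91%). Among the first 100 were 40 tRNAs, 53 miRNAs, 5 rRNAs and 2 piRNAs. The order began with 28S rRNA (15.6%, 17.5% and 15.1% of all reads) and tRNA-Gly-GCC (17.1%, 14.3% and 15.1%), whose ranges overlapped: tRNA-Gly-GCC was first in CTRL1 and 28S rRNA in CTRL2 and, narrowly, in CTRL3. tRNA-Ser-GCT and tRNA-Glu-CTC followed, then 18S rRNA, whose place at rank 5 rests on CTRL2 and CTRL3. After tRNA-Ser-AGA, tRNA-Gly-CCC and 5.8S rRNA came the first miRNA, miR-26a, at rank 9 with 1.86%, 1.67% and 1.75% of all reads. The first piRNA stood at rank 96, with 0.0837% of all reads.

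The classes differed in how their reads were spread over members. In tsRNA, 3 of 47 tRNAs held 50% of the reads in each library and 18, 20 and 20 held 90%. In miRNA, with numbered copies of a hairpin summed, 11, 12 and 11 of 331 names held 50% and 52, 54 and 50 held 90%. piRNA reads were scattered, with 677, 856 and 451 of 25889 rows needed for 50%. A single name, 28S rRNA, held over 50% of the rRNA reads in each library. With 47 tRNA names, 331 miRNA names and 25889 piRNA rows, these numbers depend in part on how finely each class is divided.

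**Figure D2:**
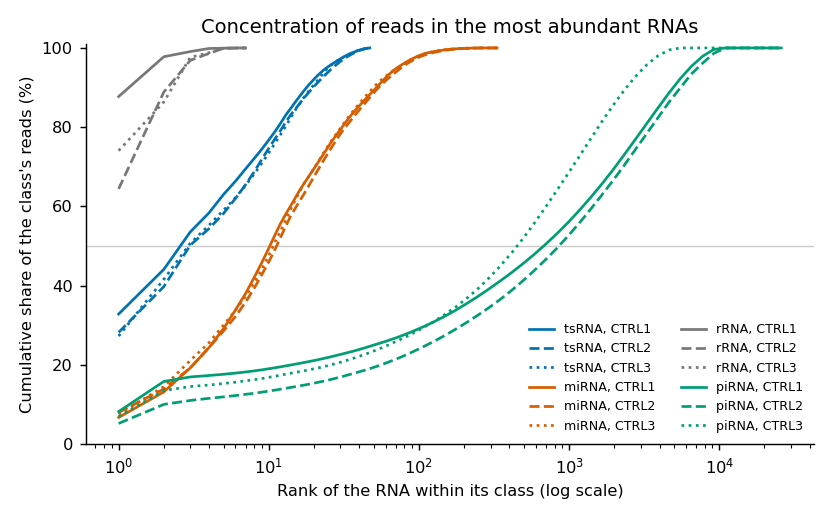
Cumulative share of a class's reads (%, vertical axis) against the rank of the RNA within its class in that library (log scale), 1 line per class and library, with a grey line at 50%. The tsRNA lines cross 50% at rank 3, the miRNA lines at rank 11 or 12 and the piRNA lines between rank 451 and rank 856, with the line of CTRL3 reaching the top first among piRNA.

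Among the tRNAs, tRNA-Gly-GCC was the most abundant in every library. It held 32.8%, 28.2% and 27.3% of the tsRNA reads (29.4 ± 2.98%), from 1351505, 592067 and 640521 reads. tRNA-Ser-GCT held 11.3%, 10.5% and 14.3%, and tRNA-Glu-CTC 9.45%, 11.6% and 9.07%. tRNA-Gly-GCC was apart from the next by its range, while tRNA-Ser-GCT and tRNA-Glu-CTC exchanged places in CTRL2. tRNA-Ser-AGA (4.41 ± 0.512%) and tRNA-Gly-CCC (4.21 ± 0.444%) came next and overlapped. The following 10 were tRNA-Val-CAC, tRNA-Lys-CTT, tRNA-Lys-TTT, tRNA-Asp-GTC, tRNA-Val-AAC, tRNA-Glu-TTC, tRNA-Leu-TAA, tRNA-Ser-TGA, tRNA-Leu-AAG and tRNA-Ala-TGC, with means from 3.17% down to 1.704%. With rows matched to the genome only, tRNA-Asp-GTC was at 0.885% instead of 2.62% and tRNA-Glu-TTC at 1.41% instead of 2.53%. Of the 19 pairs of neighbours among the first 20 tRNAs, 5 were apart by range and 6 had the same order in all libraries. The first 5 tRNAs were the same set in the 3 libraries, and 18 tRNAs were in the first 20 of each.

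By amino acid, glycine tRNAs held 38.4%, 33.7% and 31.98% of the tsRNA reads (34.7 ± 3.33%). Serine tRNAs held 18.4%, 16.3% and 21.2% and glutamate tRNAs 11.8%, 14.3% and 11.5%. Leucine (7.36 ± 0.502%), lysine (6.28 ± 0.581%) and valine (6.27 ± 1.145%) were close to one another, and the remaining 16 kinds, among them the initiator methionine tRNA at 0.908 ± 0.158%, lay between 0.118% for tyrosine and 3.00% for alanine. The tRNA of selenocysteine, which decodes a recoded stop codon in a small set of selenoproteins, held 1.16 ± 0.170%, about as much as the 5 arginine tRNAs together (1.097 ± 0.132%).

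Within an amino acid the reads fell mostly on 1 anticodon in some cases and evenly in others. Of 12 amino acids with several anticodons, 9 had the same order of anticodons in all libraries. GCC held 84.8 ± 0.955% of the glycine reads, CTC 79.8 ± 0.983% of the glutamate reads, AAT 93.2 ± 3.11% of the isoleucine reads, TGT 75.0 ± 6.05% of the threonine reads and GCT 64.5 ± 3.03% of the serine reads. TGC was first of the alanine tRNAs (56.7 ± 4.56%), CTG of glutamine (57.0 ± 4.13%), CAC of valine (50.6 ± 0.818%) and TGG of proline (42.6 ± 1.08%). The 2 lysine anticodons were even, with CTT at 51.8%, 48.9% and 49.3% of the lysine reads. In leucine, TAA (27.4 ± 4.60%) was first on average and AAG (26.7 ± 3.03%) was higher in CTRL2 and CTRL3, and in arginine CCT (26.1 ± 5.27%) led on average but not in CTRL2. The number of tRNA genes that RefSeq names for an anticodon in GRCr8 went little with these shares: over 44 tRNAs, Spearman's rho was 0.334. tRNA-Ser-GCT has 8 named genes, fewer than tRNA-Ala-AGC or tRNA-Pro-AGG with 92 each, whose shares were 0.502 ± 0.0824% and 0.125 ± 0.00247%. Other abundant tRNAs have more named genes than tRNA-Ser-GCT, as tRNA-Gly-GCC with 22 and tRNA-Ser-AGA with 52. All points come from the same libraries, and no test was made.

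Most tsRNA reads came from 5' ends. The 5' end rows held 79.4%, 80.3% and 78.9% of the tsRNA reads (79.5 ± 0.702%), equal to 41.9 ± 1.51% of the reads of all classes. CCA ends, which carry the bases CCA that are added to every mature tRNA after transcription, held 7.62%, 6.84% and 10.1% (8.18 ± 1.7003%). Other 3' ends held 0.158%, 0.276% and 0.167%. The remaining 12.8%, 12.6% and 10.8% of the reads were counted for the whole tRNA and in none of its end rows. The 5' end of tRNA-Gly-GCC alone made up 16.1%, 13.5% and 14.3% of all small RNA reads. The bases CCA are not written in the rat tRNA genes, and 70.8%, 70.8% and 70.0% of the CCA end reads stood in rows not matched to the genome, against 6.15%, 5.65% and 8.17% of all tsRNA reads.

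The dominance of 5' ends rests on the most abundant tRNAs. The 5' end was the leading part in 25 of 47 tRNAs, which held 87.4% of the tsRNA reads, the CCA end in 11 (8.21%), and reads outside the ends in 11 (4.41%). Across the 47 tRNAs the 5' share ran from 1.06% to 96.5% with a median of 50.3%. In 23 tRNAs it was above 50% in all libraries and in 17 below 20% in all. Summed by amino acid, 5' ends were highest for serine and glycine tRNAs, at 94.9 ± 0.286% and 92.6 ± 0.326% of their reads, followed by alanine (85.6 ± 1.41%), glutamate (79.6 ± 3.23%), lysine (77.8 ± 3.59%) and valine (75.5 ± 3.39%). These sums follow the abundant anticodons, and the rarer tRNA-Gly-TCC and tRNA-Ser-CGA had 60.9 ± 5.40% and 73.0 ± 1.98% at the 5' end. For tryptophan, proline, methionine and phenylalanine it was between 4.86% and 5.96% on average.

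Of the 15 most abundant tRNAs, 13 had over 50% of their reads at the 5' end in every library, and the exceptions were tRNA-Asp-GTC and tRNA-Glu-TTC. In tRNA-Asp-GTC the CCA end held 59.98%, 56.2% and 70.3% of the reads and the 5' end 12.7%, 15.8% and 9.80%. In tRNA-Glu-TTC the CCA end held 49.0%, 40.9% and 55.4% and the 5' end 25.1%, 34.7% and 15.4%. Its isoacceptor tRNA-Glu-CTC had 93.5%, 94.2% and 92.8% at the 5' end and at most 1.701% at the CCA end, so that the 2 glutamate tRNAs did not overlap for either end. tRNA-Asp-GTC and tRNA-Glu-TTC gave 19.9 ± 2.05% and 15.1 ± 1.55% of all CCA end reads, ahead of tRNA-Leu-CAG with 8.09 ± 1.97%. They also led the small group of other 3' ends, with 22.7 ± 2.74% and 28.6 ± 4.47%. CCA ends made up over 50% of the reads of 5 tRNAs in each library: tRNA-Asp-GTC, tRNA-Phe-GAA (78.3 ± 8.66%), tRNA-Tyr-GTA (66.6 ± 9.90%), tRNA-Thr-AGT (66.3 ± 7.59%) and tRNA-Thr-CGT (73.4 ± 10.3%).

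**Figure D3:**
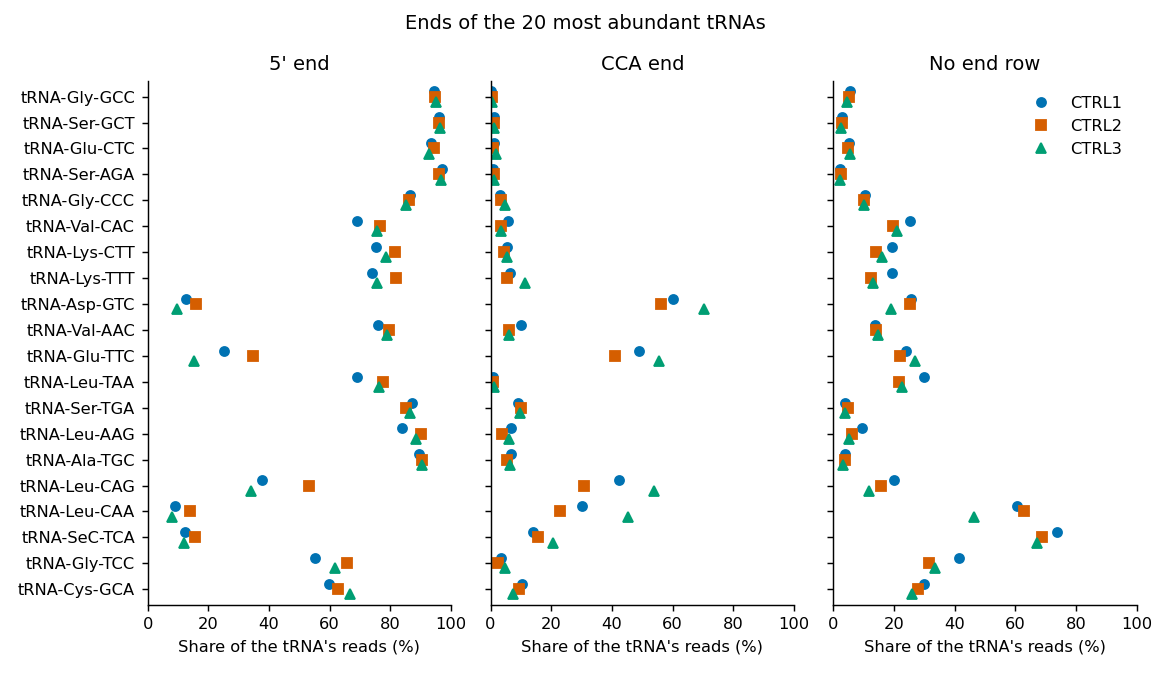
Share of each tRNA's own reads (%, horizontal axis) at its 5' end, at its CCA end and in no end row, for the 20 most abundant tRNAs in order of abundance and the 3 SD libraries (points). The first 5 tRNAs lie above 85% at the 5' end, whereas tRNA-Asp-GTC and tRNA-Glu-TTC lie between 9.80% and 34.7% there and between 40.9% and 70.3% at the CCA end.

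Reads in no end row, whose position in the tRNA the tables do not give, led in others. In tRNA-SeC-TCA, 73.8%, 68.8% and 67.1% of the reads were in no end row, and in tRNA-Leu-CAA 60.5%, 62.9% and 46.5%. Of the arginine tRNAs, those with the anticodons CCT (78.6 ± 7.72%), CCG (76.4 ± 5.77%), ACG (69.7 ± 11.6%) and TCG (63.8 ± 8.15%) were of this kind, while tRNA-Arg-TCT had 70.2 ± 2.55% at the 5' end. tRNA-His-GTG was the only tRNA with a 5' end row not matched to the genome, and it had no matched one. That row held 11301, 5147 and 13674 reads, or 50.5%, 51.9% and 67.9% of the tRNA. Histidine tRNA is known to receive a guanosine at its 5' end after transcription, a base that its genes do not contain.

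The balance of ends differed between the libraries. CTRL3 had the highest CCA share in 32 of 47 tRNAs and CTRL2 the highest 5' share in 29, and the part outside the ends was highest in CTRL1 in 24 and in CTRL3 in 4. In tRNA-Leu-CAG this changed the leading end, which was the 5' end in CTRL2 (53.3%) and the CCA end in CTRL1 (42.3%) and CTRL3 (53.9%). Of the 25 tRNAs led by the 5' end on average, 24 were so in each library, against 7 of 11 for the CCA end and 8 of 11 for reads outside the ends.

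Among the miRNAs, miR-26a was first on average and let-7f second. miR-26a, a miRNA of differentiated tissues that represses the methyltransferase EZH2, held 6.44%, 7.98% and 7.53% of the miRNA reads (7.32 ± 0.794%). let-7f held 6.73%, 5.94% and 6.61% (6.43 ± 0.427%), and let-7c 4.69%, 5.31% and 6.97% (5.66 ± 1.17%). let-7f was above miR-26a in CTRL1, and let-7c above let-7f in CTRL3, so this order was not fixed. miR-21, induced in growth and inflammation, held 6.06%, 5.16% and 3.44%, and miR-30a, of a family expressed in many epithelia, 4.80%, 4.18% and 2.74%. Both were highest in CTRL1 and lowest in CTRL3.

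The following 7 names lay close together, with means from 3.83% to 3.37%: let-7a, miR-143, miR-10a, miR-30d, let-7g, miR-30c and miR-10b. miR-143, which is abundant in smooth muscle and fibroblasts, was the most uneven of them, with 5.15%, 2.53% and 3.52%. let-7g (3.56%, 3.49% and 3.68%) and miR-30d (3.81%, 3.54% and 3.48%) were the most even. miR-191a (2.74 ± 0.381%), miR-99a (2.40 ± 0.650%), miR-34b, miR-26b (1.78 ± 0.185%), miR-125b (1.68 ± 0.518%), miR-200b, miR-741 and miR-23a (1.30 ± 0.343%) completed the first 20, which held 68.6% of the miRNA reads on average. Not 1 of the 19 pairs of neighbours among the first 20 was apart by range, and 3 kept their order in all libraries. Of the first 5 names 2 were shared by all libraries, of the first 10 there were 6, and of the first 20 there were 17, with 24 names in the first 20 of any library. The order of miRNAs was thus resolved in broad steps only.

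**Figure D4:**
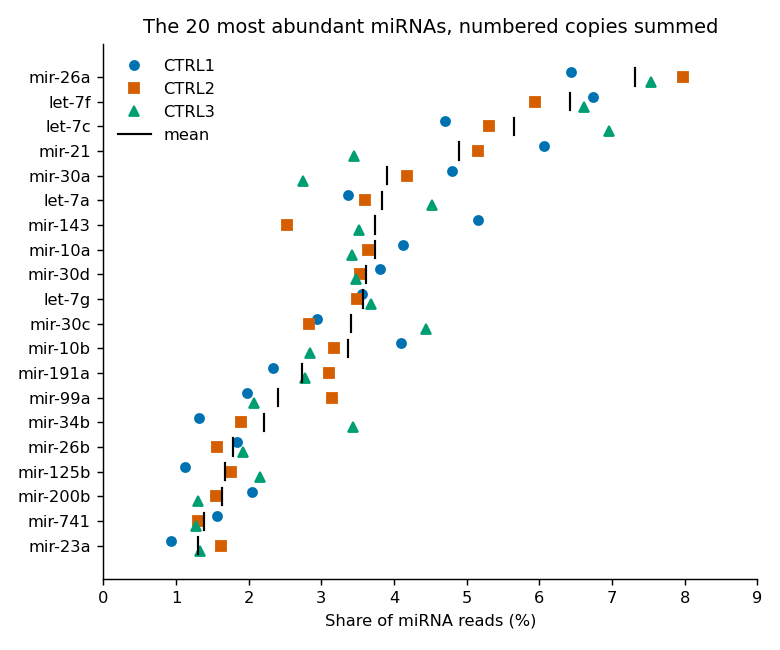
Share of miRNA reads (%, horizontal axis) of the 20 most abundant miRNAs with numbered copies summed, in order of their mean (line), in the 3 SD libraries (points). The points of neighbours overlap throughout, and miR-34b ranges from 1.32% in CTRL1 to 3.43% in CTRL3.

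Summed by family, the order was clearer. The first 20 miRNAs fell into 13 families, of which let-7, miR-30, miR-26 and miR-10 had several members there. The let-7 family with miR-98 held 21.2%, 21.7% and 25.6% of the miRNA reads (22.8 ± 2.39%), the miR-30 family 13.0%, 12.0002% and 11.8% (12.3 ± 0.631%) and the miR-26 family 8.27%, 9.55% and 9.46% (9.10 ± 0.713%). The miR-10 family, encoded inside the HOX clusters, held 8.22%, 6.82% and 6.27% (7.10 ± 1.005%). These 4 families together made up 50.7%, 50.04% and 53.1% of the miRNA reads. The ranges of the 4 families were apart from one another, although the highest value of miR-10 (8.22%) came close to the lowest of miR-26 (8.27%). Smaller families included miR-99 and miR-100 (2.87 ± 0.782%), miR-125 (2.30 ± 0.699%), miR-15 and miR-16 (1.80 ± 0.190%) and miR-29 (0.978 ± 0.365%), which is known to target DNA methyltransferases.

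Numbered copies of a miRNA are different genes with the same main mature sequence, and reads of that sequence cannot be assigned to 1 of them. Of 16 names with copies and a mean of at least 1000 reads, 11 had copies within 1.1-fold of each other in each library. The copies of let-7c differed by at most 1.004-fold. The widest gaps were those of miR-92a, with its copies 7.67 to 7.98-fold apart, miR-194 (2.46 to 3.73-fold) and miR-128 (2.02 to 2.52-fold). Taken hairpin by hairpin, let-7f and let-7c each fell into 2 rows, and miR-26a was followed by miR-21 and miR-30a.

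Hairpins that lie within 10 kb of each other on 1 strand in RefSeq are often cut from a common transcript, and their levels differed widely. Of 315 hairpins with a position in GRCr8, 147 lay in 40 such clusters and held 46.7 ± 1.40% of the miRNA reads. miR-143 exceeded its neighbour miR-145 by 18.1, 7.44 and 12.8-fold, and miR-29a exceeded miR-29b-1 by 91.4, 95.7 and 60.4-fold. The row of miR-29b-1 held 209.4, 118.93 and 104.4 reads, and miR-29b-2 is a numbered copy of it with reads of its own. The gap of miR-29a to both copies together was therefore smaller. miR-200c stood 19.96, 34.5 and 26.3-fold above miR-141, whereas miR-200b stood 3.51, 3.72 and 3.51-fold above miR-429. The ratio of miR-191a to miR-425 was 7.82, 7.60 and 9.05, and that of miR-221 to miR-222 was 1.86, 2.08 and 1.89. These are ratios of reads, and the ease with which a small RNA enters the library differs between sequences.

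The labelled cell type was checked against miRNAs known from the male germ line and from other cells that sperm samples can contain. Of 17 germ line miRNAs, 16 had a row and all 16 were above 0 in each library, with a summed share of 6.32%, 7.09% and 7.01% of the miRNA reads (6.80 ± 0.424%). On average miR-34b led, with 1.32%, 1.89% and 3.43%, followed by miR-741 with 1.57%, 1.30% and 1.28% and miR-34c with 0.786%, 1.56% and 0.727%, but miR-741 was above miR-34b in CTRL1 and miR-34c above miR-741 in CTRL2. miR-34b and miR-34c come from 1 transcript and are cut from neighbouring hairpins, and their ratio was 1.68, 1.21 and 4.72, highest in CTRL3, where miR-34b was at its highest and miR-34c at its lowest. Next were the X-linked miR-743b (0.699 ± 0.202%), miR-463 (0.295 ± 0.0524%), miR-743a (0.284 ± 0.0843%), miR-881 (0.218 ± 0.0676%), miR-871 (0.179 ± 0.0641%) and miR-878 (0.159 ± 0.0326%). miR-449a (0.128 ± 0.0551%), miR-471, miR-465, miR-883, miR-202, miR-184 and miR-880 lay lower, down to 0.00429 ± 0.00131% for miR-880. All X-linked hairpins together, 48 with a position, held 9.55%, 8.22% and 8.19%, which includes let-7f-2 and miR-98.

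miRNAs of other cell types were present beside those of the germ line. The 7 epithelial miRNAs, which the epididymis expresses, were all above 0 in each library and summed to 4.93%, 3.69% and 3.22% (3.95 ± 0.884%). miR-200b (1.64 ± 0.379%), miR-200c (0.970 ± 0.186%), miR-429 (0.458 ± 0.112%) and miR-200a (0.441 ± 0.156%) led them, ahead of miR-205 (0.302 ± 0.0420%), miR-203a (0.104 ± 0.00868%) and miR-141 (0.0388 ± 0.0173%). The 4 of smooth muscle and stroma summed to 5.804%, 3.52% and 4.30%, of which miR-143 gave the greatest part. Without miR-143 the sum of miR-199a (0.484 ± 0.132%), miR-145 (0.300 ± 0.0346%) and miR-214 (0.0255 ± 0.0139%) was 0.810% on average. In CTRL1 the epithelial and stromal sums were at their highest and the germ line sum at its lowest. Members of the lists differed in this. The stromal peak lay in miR-143, while miR-199a (0.353%, 0.616% and 0.484%) and miR-214 were lowest in CTRL1. Of the germ line, miR-34b was lowest in CTRL1. The X-linked testis miRNAs, most of them on the germ line list, were highest there (4.60%, 3.72% and 3.02%).

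Lists of blood, endothelium and other organs were lower. The 5 leukocyte miRNAs summed to 0.687%, 0.952% and 0.780%, with miR-146a (0.512 ± 0.0814%) first and the blood-specific miR-142 (0.0839 ± 0.00698%) and miR-223 (0.0781 ± 0.0319%) well below it, beside miR-150 (0.108 ± 0.0240%) and miR-155 (0.0239 ± 0.00640%). The endothelial miR-126a was at 0.397%, 0.273% and 0.516%, and the neural miR-9a, miR-128 and miR-124 together at 0.376 ± 0.0584%. The liver, kidney and gut miRNAs miR-192, miR-194 and miR-122 summed to 0.315 ± 0.0469%, with miR-122, which is almost confined to hepatocytes, at 0.0116 ± 0.00872%. The erythroid miR-451, miR-486 and miR-144 summed to 0.171 ± 0.0139%. Striated muscle miRNAs were near the limit of counting, with miR-133a at 334, 145 and 122 reads, miR-1 at 88, 7 and 0, and miR-206 and miR-133b at 10 and 9 reads in CTRL1 and at 0 in CTRL2 and CTRL3. The 8 somatic lists summed to 12.7%, 9.32% and 9.69% of the miRNA reads, and the ratio of the germ line sum to this sum was 0.497, 0.760 and 0.724. Several of these miRNAs are expressed in more than 1 cell type, germ cells included, and in such bulk samples fewer cells of a type and less RNA per cell cannot be told apart. The lists also differ in length, and a longer list can give a larger sum. The part of other cells in the profile was not tested.

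**Figure D5:**
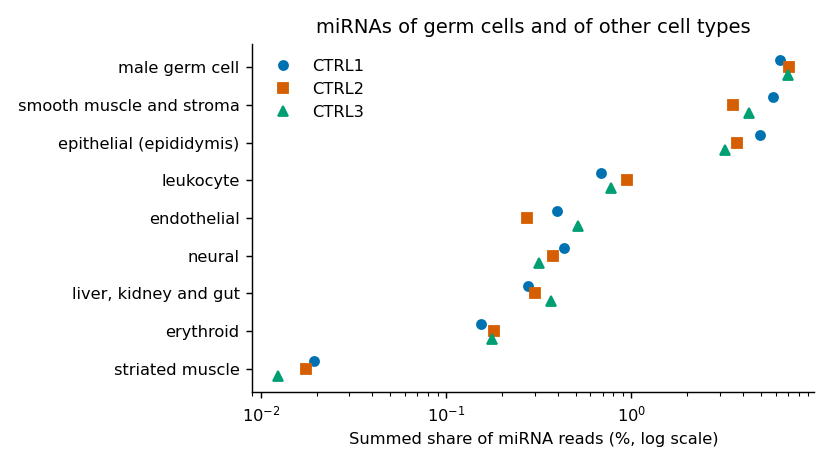
Summed share of miRNA reads (%, horizontal log axis) of miRNAs known from the male germ line and from 8 groups of other cells, in the 3 SD libraries (points). The germ line list lies between 6.32% and 7.09%, above each other list in each library, and striated muscle miRNAs are lowest with 0.0164% on average. The lists differ in length, with 16 germ line, 7 epithelial, 4 stromal and 1 endothelial miRNA in the sums.

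Ribosomal fragments came mainly from the RNA of the large subunit. 28S rRNA held 87.7%, 64.4% and 74.1% of the rRNA reads, and the next was 18S rRNA of the small subunit with 0.0112%, 24.5% and 12.3%. The 158 reads of 18S rRNA in CTRL1 were all in the row not matched to the genome. Both 18S rows together made up 6.64% and 2.50% of all reads in CTRL2 and CTRL3. If the matched row of CTRL1 is at 0 through a fault of the table, the 18S share and the rRNA share of CTRL1 are too low, and no limit on 18S rRNA is therefore drawn from it. The mean 18S share of the rRNA reads of 12.3% was 18.4% without CTRL1 and 6.15% without CTRL2. With the 18S rows left out, 28S rRNA held 87.7%, 85.3% and 84.4% of the rRNA reads, a narrow range.

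5.8S rRNA, which pairs with 28S rRNA in the large subunit, held 10.1%, 7.99% and 11.3% of the rRNA reads, and 28S reads were 8.73, 8.06 and 6.56 times as many. 5S rRNA held 1.30%, 1.32% and 1.11%, and 45S rRNA, the precursor of 18S, 5.8S and 28S rRNA, 0.785%, 1.74% and 1.16%. With the 18S rows left out, 5.8S rRNA held 10.1%, 10.6% and 12.9% of the rRNA reads, 5S rRNA 1.30%, 1.74% and 1.27%, and 45S rRNA 0.785%, 2.31% and 1.32%, so that the lowest 5.8S share moved from CTRL2 to CTRL1. The excess of 45S reads in CTRL2 lay in reads not matched to the genome, of which there were 468, 12718 and 361, while matched ones numbered 10602, 6868 and 9668. The rows named 5.3S-rRNA (0.0550 ± 0.0179%) and 4.5S-rRNA (0.0371 ± 0.00926%) held traces. These rows count fragments and were not divided by the length of the parent RNA, so a higher count of 28S fragments does not mean more 28S molecules.

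piRNA gave few reads, from a long list. Of 25889 piRNAs, 9974, 11104 and 5247 were above 0, and 2661 were so in all 3 libraries. Those 2661 held 62.0%, 58.1% and 71.3% of the piRNA reads and formed 26.7%, 24.0% and 50.7% of the lists of CTRL1, CTRL2 and CTRL3. CTRL2 and CTRL3 had almost equal numbers of piRNA reads, 52346 and 49950, but CTRL3 detected fewer than 50% as many piRNAs, with 9.52 reads per detected piRNA against 4.71. Thinned to the 48653 whole reads of CTRL3, the expected number of piRNAs with a whole read was 7758 in CTRL1 and 8543 in CTRL2, compared to 4485 in CTRL3. At 10 counts or more the numbers were 2318, 1000 and 1298, so that CTRL3 was then above CTRL2.

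The rows piR-226 and piR-23723 stood far above the rest of the piRNAs. piR-226 held 8.22%, 5.21% and 6.99% of the piRNA reads and piR-23723 7.60%, 4.82% and 6.53%. Their ratio was 0.925, 0.924 and 0.934, almost the same in each library, and together they made up 13.1 ± 2.91% of the piRNA reads. piR-226 had 7.21, 5.26 and 6.87 times as many reads as the row at rank 3, piR-36081 (1.05 ± 0.0794%). The next were piR-37613, piR-36806, piR-22923, piR-33165, piR-16624, piR-27752 and piR-11792, between 0.378% and 0.275% on average. Of 1130 piRNAs with a mean of at least 10 counts, 96 had the same counts as another piRNA in all 3 libraries, and 46.0% of the values were not whole, which shows that reads were split between entries. A piRNA row is therefore not always a separate RNA.

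By the median ratio, the libraries agreed most closely in tsRNA. Most tRNA names hold far more reads than single piRNA entries, so the classes were not compared at equal depth. Over RNAs with a mean of at least 100 counts, the median ratio of the highest to the lowest library, on shares of all reads, was 1.41 for 47 tRNAs, 1.62 for 175 miRNAs, 1.58 for 7 rRNAs and 1.51 for 25 piRNAs. The piRNA value covers the few abundant ones only, and over piRNAs with a mean of at least 10 counts it was 3.14. None of the tRNAs differed by over 2-fold, against 51 of the miRNAs, 6 of the piRNAs and 2 of the rRNAs. Of the 175 miRNAs, 99 were highest in CTRL1, the library with the highest miRNA share. Spearman's rho between libraries was between 0.984 and 0.988 for tRNAs, between 0.966 and 0.976 for miRNAs and between 0.566 and 0.796 for the piRNAs. For the 7 rRNAs it was 0.429 for CTRL1 with either other library and 1 for CTRL2 with CTRL3. These are correlations across RNAs, which are not independent replicates.

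Shares within the class showed which members were least and most even. Among 100 miRNAs with a mean of at least 1000 reads, miR-34b (2.60-fold between highest and lowest library), miR-101b (2.59), miR-340 (2.57), miR-449a (2.39) and the X-linked miR-201 (2.36) varied most. let-7g (1.06), miR-27b (1.06), miR-204 (1.08), miR-451 (1.09) and miR-30d (1.09) varied least. Of the tRNAs, tRNA-Ile-TAT (2.03), tRNA-Gln-CTG (1.89), tRNA-Tyr-GTA (1.86), tRNA-Arg-ACG (1.85) and tRNA-His-GTG (1.81) varied most. The proline tRNAs with the anticodons AGG (1.04), CGG (1.11) and TGG (1.14), tRNA-Ser-CGA (1.16) and tRNA-Glu-TTC (1.16) varied least, although the ends of tRNA-Glu-TTC did differ between libraries. The evenness of the rRNAs depends on the 18S rows: with them, 28S rRNA ran from 64.4% to 87.7% of the rRNA reads and 5S rRNA from 1.11% to 1.32%, and without them from 84.4% to 87.7% and from 1.27% to 1.74%. piR-61203 (4.53), piR-61534 (3.55) and piR-14253 (2.50) varied most among the piRNAs and piR-27752 (1.05) least.

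The most abundant RNAs were compared by name with those of the HPD libraries. Of the 20 most abundant RNAs by mean share of the class, 17 miRNAs, 18 tRNAs and 16 piRNAs were also among the 20 most abundant of the 3 HPD libraries. Of the first 10, 7 miRNAs, 6 tRNAs and 8 piRNAs were shared, and of the first 5 there were 3 miRNAs, 4 tRNAs and 3 piRNAs. tRNA-Gly-GCC, 28S rRNA and piR-226 were first there too, but let-7f was the first miRNA, and miR-26a and miR-30a were not among the first 5. Within the SD libraries, 17 miRNAs, 18 tRNAs and 14 piRNAs were among the 20 most abundant of each library. Of the first 10 there were 6 miRNAs, 8 tRNAs and 6 piRNAs, and of the first 5 there were 2, 5 and 3. These SD counts need a place in each of 3 single libraries, whereas the counts shared with HPD compare group means. The 2 kinds of count are therefore not on the same scale. Beyond these names the diets were not compared, and no test between them was made.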

How the data were processed

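Libraries of small RNA from the epididymal sperm of 3 SD and 3 HPD rats were read on an Illumina instrument. The authors trimmed the reads, discarded those under 15 nucleotides, annotated the rest with SPORTS1.0 (rat databases of Rnor_6.0, and piRNAdb for piRNA) and deposited estimated counts, which are not normalized. Bowtie, DESeq, DESeq2 and the build mm9 are named as well in the processing notes of the submitters. A deposited table of normalized counts is a signal: 100% of its values became whole, within 0.001, once multiplied by a factor for the library. Sequences were matched by name to RefSeq (GRCr8), for 354 of 380 hairpins.

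Shares were computed from the estimated counts with Python 3.11.15 and pandas 2.3.3, after a check on simulated data. edgeR 4.0.16 gave TMM factors for 1 alternative. No difference was tested. Members and lists were chosen with earlier results of these data known.

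Named RNAs were, by mean share of the class, the 20 most abundant of all classes, 20 miRNAs, 15 tRNAs with their ends, the first anticodon of each amino acid, every rRNA, 10 piRNAs, members of the lists, any RNA at 0 in 1 library with a mean of at least 100 counts, and the 5 most and least even per class with a mean of at least 1000 counts (100 for piRNA). tRNAs named for their ends, and miRNAs named for clusters or copies, were chosen after their values were seen. Alternatives changed the denominator, matched rows, filters, copies, normalization and libraries. Depth was 4141012 to 7919940 reads. Reads without molecular identifiers are not independent molecules.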

Additional observations from a re-analysis of the deposited data

How the results depend on the processing

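No value reported here rests on a test, so the alternatives changed sizes and no calls. No paired analysis was possible because no test was made and the columns are not tied to numbered rats. Of 302 alternative values of 57 results, 264 moved by less than 1 standard deviation of the libraries or, for counts and ratios, by less than 1.5 times. The other 38 moved further. Of the 302 values, 171 left out 1 library, and none of those 171 moved further, so all 38 came from the other changes. Without 1 library at a time, the mean share of tsRNA was 51.3% to 53.6%, of miRNA 22.1% to 26.1%, of rRNA fragments 19.1% to 23.7%, of piRNA 1.22% to 1.26%, and of 18S rRNA in rRNA reads 6.15% to 18.4%. A mean of 2 of the libraries lies by construction within 1 standard deviation of the mean of 3, so this is no sign of stability. miR-26a, let-7f and let-7c were the first 3 names throughout, except that miR-21 took the third place without CTRL3 and that single hairpin rows put miR-21 and miR-30a there.

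With rows matched to the genome only, 5' ends held 84.8% and CCA ends 2.60% of the tsRNA reads. As a median over tRNAs with at least 1000 reads in every library, 5' ends held 52.7%, CCA ends 15.2% and reads in no end row 23.0%. With 5' end rows only, glycine held 40.4%, tRNA-Asp-GTC 0.410% and tRNA-Glu-TTC 0.809%. With piRNAs of at least 10 counts in every library, the first held 17.8%, 25 rows held 50% and 237 held 90% of the reads. On average 1539 piRNAs per library had at least 10 counts and 117 at least 50, and the median spread of piRNAs was 3.14 over those with a mean of at least 10 counts. As shares of all reads, the marker sums were 1.65% for germ cell, 0.983% epithelial, 0.193% leukocyte, 0.0413% erythroid, 0.0974% endothelial, 1.14% smooth muscle and stroma, 0.00404% striated muscle, 0.0763% liver, kidney and gut and 0.0928% neural. Without their most abundant member, as shares of miRNA reads, they were 4.59%, 2.31%, 0.294%, 0.0816%, no value for the single endothelial miRNA, 0.810%, 0.00183%, 0.158% and 0.129%. The median spread stayed between 1.33 and 1.41 for tsRNA and between 1.54 and 1.80 for miRNA under other scalings and filters. At equal numbers of piRNA reads, with counts cut to whole numbers, the expected number of piRNAs with a whole read still differed between libraries. The cause of this difference was not tested.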

Other observations

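A row that sums all small nucleolar RNA held 42658, 12182 and 18765 reads, or 0.536%, 0.293% and 0.439% of all reads, and was left out of the shares because it names no single RNA. tRNA precursors held 60, 6 and 8 reads in the 3 libraries. The miR-183, miR-96 and miR-182 cluster, known from sensory cells, held 0.911 ± 0.221% of the miRNA reads, and miR-182 exceeded miR-183 by 2.06, 2.35 and 2.31-fold, whereas miR-183 exceeded miR-96 by 18.6, 13.0 and 46.0-fold.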
